A study of Mus musculus with 81 samples.

Results

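The genes described here encode the enzymes that build sterols and fatty acids, together with the SREBP transcription factor system that controls them. The rule that chose them was a list of gene names, and all 33 were found among the 54079 to 55450 genes listed per experiment. Of the 33, 17 encode sterol synthesis enzymes, 4 encode SREBP factors and their regulators, 11 encode enzymes of fatty acid synthesis, elongation and desaturation, and 1, Stard4, encodes a sterol transfer protein. Their RNA was counted in 81 libraries of mouse macrophages and their bone marrow progenitors from animals with or without a myeloid deletion of H3f3a and H3f3b, the genes of the histone variant H3.3, in 27 groups of 5 experiments (79 libraries, 3 per group, except 2 in each cKO group of day 8).

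WT mice carried floxed H3f3b (fl/fl) and floxed H3f3a (fl/fl), and H3.3cKO mice (cKO) had LysM cre/cre in addition. All were on a C57BL/6 background, of both sexes and 8 to 10 weeks old. The Cre sits in Lyz2, so it is made in macrophages and granulocytes and cKO cells also lack Lyz2. WT mice carried no Cre. Bone marrow cells were grown with 20% L929-conditioned medium into bone marrow-derived macrophages (BMDMs). The time course sampled both genotypes after 3, 5 and 7 days, and the labels call the cells of days 3 and 5 progenitors. Neutrophil markers there summed to 1570.1 to 3672 CPM on day 3 and 105 to 304 CPM on day 7. Day 8 BMDMs were untreated or had received interferon-γ (IFNγ) for 12 h. In the antibody experiment BMDMs had no antibody, a control antibody or an antibody to the type I interferon receptor chain IFNAR1 (10 µg/mL, renewed every 12 h) and were lysed on day 6. Peritoneal macrophages came directly from the mice. In the last experiment, 3 sets of WT and cKO BMDMs were sequenced with BMDMs of 3 double knockouts, in which the H3.3cKO genotype was combined with loss of Sting, Mavs or Irf7. The labels do not tie a set to a double knockout, so each double knockout was compared with the mean of the 3 cKO sets. As deposited, set 3 and the Irf7 double knockout list 54146 genes, and the other groups of that experiment list 55536.

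Cholesterol is built from acetyl-CoA through mevalonate, farnesyl diphosphate, squalene and lanosterol, and fatty acids are built from malonyl-CoA and then lengthened and desaturated. When sterols run low in the endoplasmic reticulum, SCAP carries SREBP proteins to the Golgi, where they are cut and released as transcription factors for most enzymes of both pathways. When sterols are plentiful, INSIG proteins hold the complex back. In macrophages these pathways supply membranes for growing cells, and interferons are known to lower sterol synthesis.

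Time course libraries held 14419697 to 20220329 counts on genes, and those of day 8 3614967 to 10498769. Peritoneal libraries had 7625225 to 23381318, libraries of the antibody experiment 5295144 to 34380735, and the BMDM sets with the double knockouts 21504555 to 45581528. H3f3a was at 33.6 to 93.8 CPM (counts scaled to 1000000 per library, with TMM factors) in WT libraries and at 1.21 to 15.3 CPM in cKO libraries. H3f3b was far lower in cKO cells in the antibody experiment (16.7 to 67.8 against 295 to 468 CPM), while in the other BMDM experiments and in peritoneal macrophages the ranges of the genotypes overlapped within each experiment (149 to 361 CPM in cKO and 181 to 536 CPM in WT libraries). Lyz2 was at most 81.9 CPM in cKO libraries. Summed over 6 macrophage markers, every library held 2482 to 11324 CPM. BMDM sets 1 and 3 resembled each other: over 7531 genes, WT set 1 replicates 1 and 2 correlated with WT set 3 replicates 1 and 2 at r = 0.86, above the 0.67 to 0.74 within set 1, whereas WT set 2 correlated with the other sets at -0.22 to 0.08. Among cKO libraries, sets 1 and 3 correlated at 0.20 to 0.62, against 0.65 to 0.79 within set 1 and 0.67 to 0.86 within set 3. The cKO libraries of set 2 correlated with those of the other sets at 0.01 to 0.27. The deviations of WT set 3 replicate 1 from the mean also correlated with those of WT day 7 replicate 2 of the time course (r = 0.83). Sets 1 and 3 therefore cannot be taken as independent repeats of one result. Counts over the sets and over the comparisons below include both, with set 2 beside them.

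The promoters of these genes are known for sterol regulatory elements (SRE) bound by SREBP, near sites for the factors NF-Y and Sp1 that SREBP needs. No promoter window was at hand for Fdps, Fdft1, Sqle, Scd1, Scd2, Fads1 and Stard4. Scd1 and Scd2 had the deepest falls of all members in each BMDM set, described below. RefSeq promoter windows (GRCm38.p6, 250 bases before the start) were at hand for the other 26 members, as 33 windows. The classical SRE letters TCACNCCAC, read on both strands, were in 1 of these windows, that of Hmgcs1, or 3.03% against 1.05% of all 32851 windows. The NF-Y letters CCAAT were in 22 windows of 21 members (66.7% against 33.8% of all windows). GGGCGG, the letters of an Sp1 site, were in 24 windows of 21 members (72.7% against 32.7%), and CACGTG, an E-box, was in 6 (18.2% against 6.02%). A match of letters is a description and not a bound site. The stretches below are those of members picked for their role (Hmgcs1 at the entry of sterol synthesis, Insig1 and Srebf2 the regulators, Fasn the fatty acid synthase). Capitals mark SRE and CCAAT letters on either strand, and each stretch lies upstream of the gene as the annotation used here places it. Hmgcs1 is given from chr13:119690101-119690350, plus strand, with the SRE 137 bases before the start. Insig1 is given from chr5:28071162-28071362, plus strand, Srebf2 from chr15:82147019-82147180, plus strand, and Fasn from chr11:120824548-120824797, minus strand.
Hmgcs1: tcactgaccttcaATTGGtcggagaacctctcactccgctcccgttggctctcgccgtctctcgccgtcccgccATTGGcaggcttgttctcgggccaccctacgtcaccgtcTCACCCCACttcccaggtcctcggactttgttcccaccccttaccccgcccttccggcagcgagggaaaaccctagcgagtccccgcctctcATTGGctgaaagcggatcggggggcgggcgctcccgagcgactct
Insig1: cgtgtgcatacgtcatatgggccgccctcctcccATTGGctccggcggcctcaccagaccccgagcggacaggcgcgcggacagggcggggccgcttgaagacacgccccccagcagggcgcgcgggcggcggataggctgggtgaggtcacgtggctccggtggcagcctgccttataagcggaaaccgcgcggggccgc
Srebf2: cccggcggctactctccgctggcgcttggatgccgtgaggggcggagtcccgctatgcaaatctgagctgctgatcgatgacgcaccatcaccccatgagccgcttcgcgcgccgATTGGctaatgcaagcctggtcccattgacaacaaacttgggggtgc
Fasn: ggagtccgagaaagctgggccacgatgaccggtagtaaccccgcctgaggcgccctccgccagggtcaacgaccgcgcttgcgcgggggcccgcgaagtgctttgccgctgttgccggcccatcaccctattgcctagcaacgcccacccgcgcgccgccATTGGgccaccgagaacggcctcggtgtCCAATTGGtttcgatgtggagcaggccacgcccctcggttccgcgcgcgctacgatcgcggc

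Levels differed widely between members. Divided by exon length, the highest in untreated WT BMDMs on day 8 was the stearoyl-CoA desaturase Scd2 (73.1 CPM per kb), followed by the regulator Insig1 (58.2), the citrate lyase Acly (47.03) and Srebf2 (35.4), and the lowest was the acetyl-CoA synthetase Acss2 (0.535 CPM per kb). In WT peritoneal macrophages the order was another: Acly came first (574 CPM per kb), then the elongases Elovl5 (164) and Elovl1 (56.02), while Scd2 was at 2.66 CPM per kb. Those experiments were normalized apart, so the levels were not tested against each other.

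**Figure D1:**
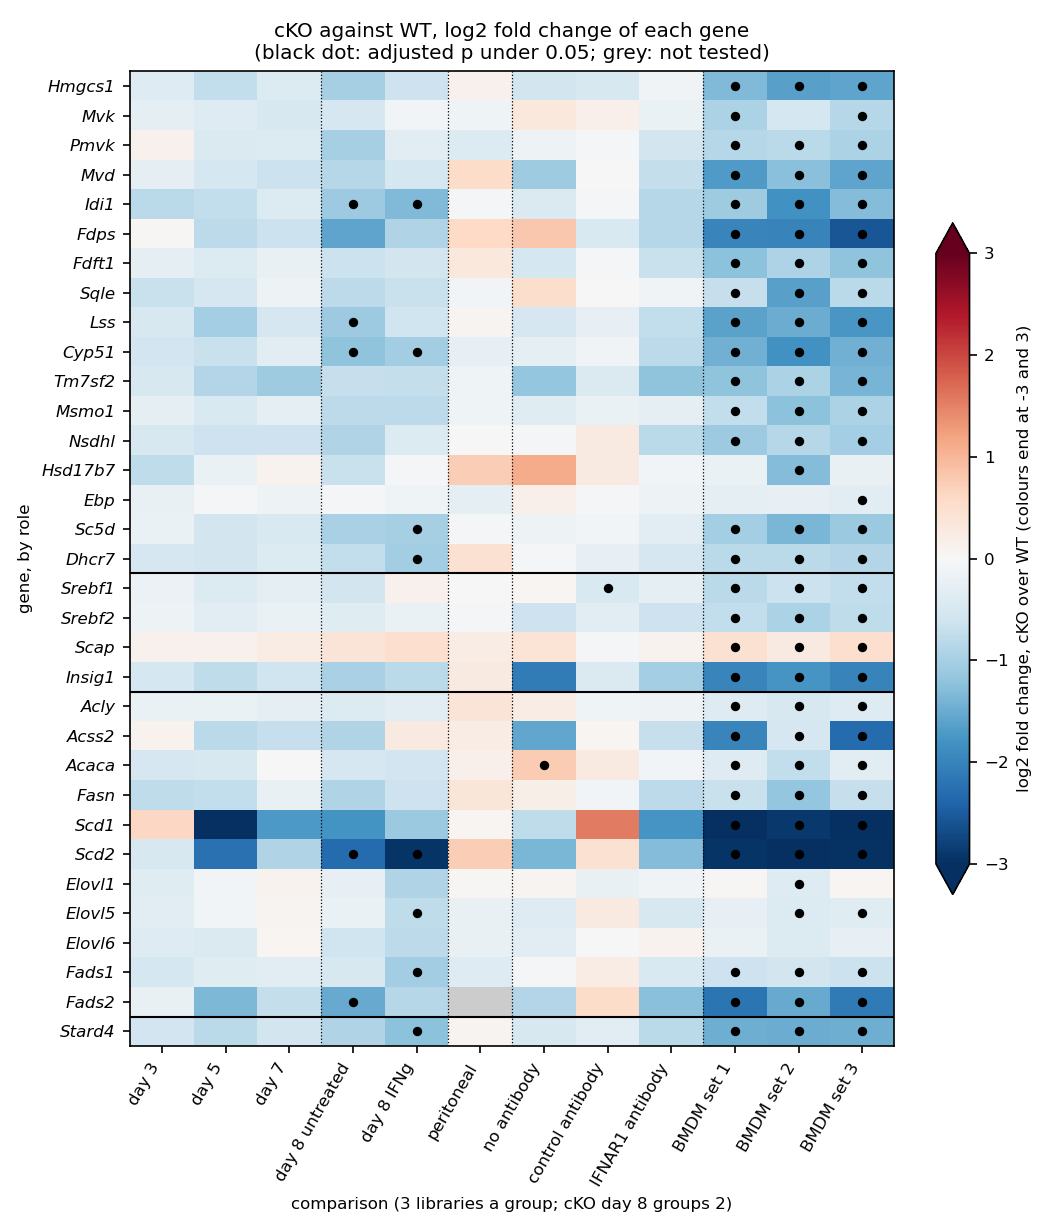
Log2 fold change of each of the 33 genes (rows, by role) in the 12 comparisons of cKO with WT cells (columns), as colour, with a dot where the adjusted p was under 0.05. The 3 columns of the BMDM sets are filled with dots in nearly every row, the day 8 columns carry 5 and 8, and the time course and peritoneal columns carry none.

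The first comparison asks how the genes stand in cKO against WT BMDMs of the 3 sets. Most members were lower in cKO cells: 27 of 33 passed the test in set 1, 29 in set 2 and 29 in set 3 (edgeR's quasi-likelihood test, Benjamini-Hochberg adjusted p under 0.05 over all genes). Over all genes tested, 16.7%, 11.3% and 18% were called lower in these sets. A single member, Scap, rose in each set, where 18%, 9.74% and 16.9% of all genes were called higher. The median log2 fold change over the 33 members was -0.96 in each of sets 1, 2 and 3, while the median over all genes was -0.031, -0.011 and -0.053. In all, 26 members were called lower in every set, and the exceptions were Mvk, Hsd17b7, Ebp, Scap, Elovl1, Elovl5 and Elovl6. The share of all genes called lower in every set was not counted, and it can be at most the 11.3% of set 2. In RNA from whole cultures, fewer cells of a type and less RNA per cell cannot be told apart.

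Among the 17 sterol enzymes, 15, 15 and 16 fell in sets 1, 2 and 3, with medians of -1.07, -1.25 and -1.12. Hmgcs1, which makes HMG-CoA at the entry of the mevalonate pathway, was at 58.2, 69.1 and 60.7 CPM in WT and 25.7, 25.7 and 23.5 CPM in cKO cells of set 1, 78.8, 57.6 and 64.3 against 20.3, 26.98 and 17.99 in set 2, and 52.7, 82.7 and 81.04 against 24.1, 24.3 and 24.03 in set 3. Every cKO library was below every WT library of its set. On the log2 scale the change was -1.33 ± 0.15, -1.62 ± 0.15 and -1.58 ± 0.15 (SE), at adjusted p of 2.83e-07, 2.03e-08 and 2.32e-08. Farther down, Idi1, the isopentenyl diphosphate isomerase, was at 7.76, 10.5 and 7.14 CPM in WT and 3.74, 3.89 and 4.53 CPM in cKO cells of set 1, 11.98, 8.56 and 8.88 against 2.31, 3.73 and 2.31 in set 2, and 4.93, 11.1 and 9.99 against 3.63, 3.65 and 3.18 in set 3. The cKO libraries were again the lower ones throughout, although WT set 3 replicate 1 was near them, and the log2 fold changes were -1.07 ± 0.25, -1.82 ± 0.25 and -1.31 ± 0.25, at adjusted p of 0.00141, 5.96e-06 and 0.000187. Sqle, the squalene epoxidase and a slow step of the pathway, was at 56.5, 90.2 and 75.4 CPM in WT and 40.6, 45.9 and 50.4 CPM in cKO cells of set 1, 129, 105 and 108 against 33.96, 45.9 and 31.5 in set 2, and 43.04, 94.2 and 95.4 against 38.3, 44.4 and 49.2 in set 3. In set 3 the lowest WT library, replicate 1, fell among the cKO libraries, so the groups overlapped there. Sqle's fold changes were -0.70 ± 0.21, -1.62 ± 0.22 and -0.82 ± 0.21 on the log2 scale, with adjusted p = 0.0129, 4.94e-06 and 0.00425.

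Lss closes the sterol rings, and Cyp51 takes the first methyl group off the product. Lss was at 39.4, 68.9 and 55.5 CPM in WT and 16.5, 17.2 and 19.9 CPM in cKO cells of set 1, 52.1, 34.4 and 43.4 against 13.6, 18.3 and 14.5 in set 2, and 34.03, 63.8 and 62.6 against 14.7, 17.01 and 16.3 in set 3. It did not overlap between the genotypes in any set (log2 fold changes -1.61 ± 0.20, -1.48 ± 0.20 and -1.74 ± 0.20; adjusted p = 1.28e-06, 5.67e-06 and 4.5e-07). Cyp51 was at 63.4, 90.1 and 74.8 CPM in WT and 27.9, 29.9 and 26.7 CPM in cKO cells of set 1, 124, 90.2 and 95.6 against 23.9, 39.5 and 24.7 in set 2, and 48.1, 93.9 and 93.5 against 26.3, 31.03 and 28.7 in set 3. The cKO libraries were the lowest in each set (log2 fold changes -1.43 ± 0.22, -1.81 ± 0.22 and -1.45 ± 0.22, at adjusted p of 1.69e-05, 1.16e-06 and 1.31e-05). The largest fall among the sterol enzymes was that of Fdps, the farnesyl diphosphate synthase, a gene of few reads whose exons overlap another gene on the same strand: -1.99 ± 0.34, -2.01 ± 0.34 and -2.57 ± 0.36 on the log2 scale. Ebp, the sterol isomerase, had -0.26 ± 0.11, -0.25 ± 0.11 and -0.31 ± 0.11, and was called in set 3 (adjusted p = 0.0279) but not in sets 1 and 2 (adjusted p = 0.0658 and 0.104). Hsd17b7, which reduces a keto group of the sterol ring, was called in set 2 (log2 fold change -1.31 ± 0.17, adjusted p = 4.64e-06) but not in sets 1 and 3 (-0.20 ± 0.18 and -0.22 ± 0.18, adjusted p = 0.428 and 0.369).

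Of the SREBP system, both transcription factor genes and Insig1 fell in every set. Insig1, itself a target of SREBP whose product retains SCAP when sterols are high, was at 155, 209.7 and 184 CPM in WT and 45.2, 48.6 and 44.998 CPM in cKO cells of set 1, 182, 124 and 137 against 35.99, 61.5 and 33.1 in set 2, and 130.2, 211 and 186 against 41.001, 46.7 and 44.1 in set 3. The genotypes were well apart in each set (log2 fold changes -1.98 ± 0.20, -1.77 ± 0.20 and -2.0 ± 0.20, at adjusted p of 8.24e-08, 5.54e-07 and 6.82e-08). Srebf2, which encodes the SREBP that drives sterol enzymes, was at 244, 344 and 333 CPM in WT and 177, 172 and 199.6 CPM in cKO cells of set 1, 388, 320.1 and 336 against 161, 222 and 155 in set 2, and 218, 316 and 299 against 152, 169 and 166 in set 3. The cKO libraries were the lower ones in each set (log2 fold changes -0.75 ± 0.14, -0.96 ± 0.14 and -0.77 ± 0.14; adjusted p = 0.000239, 2.32e-05 and 0.000161). Srebf1, which encodes the SREBP of fatty acid synthesis, was at 148, 208 and 191 CPM in WT and 105, 98.3 and 106 CPM in cKO cells of set 1, 199.7, 163 and 161 against 103, 125 and 108 in set 2, and 116, 172 and 172 against 87.2, 100.4 and 87.8 in set 3. Its groups did not overlap in any set (log2 fold changes -0.82 ± 0.14, -0.64 ± 0.14 and -0.74 ± 0.14; adjusted p = 5.92e-05, 0.00128 and 0.000186). Scap, the escort of SREBP, was at 38.2, 37.3 and 46.02 CPM in WT and 55.7, 48.3 and 63.1 CPM in cKO cells of set 1, 51.3, 49.3 and 53.6 against 63.9, 58.2 and 65.1 in set 2, and 34.9, 33.6 and 36.3 against 44.7, 53.8 and 50.04 in set 3. Here the cKO libraries were the higher ones in each set, by 0.46 ± 0.09, 0.28 ± 0.09 and 0.50 ± 0.09 on the log2 scale (adjusted p = 0.000402, 0.0299 and 0.00016).

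The 11 fatty acid genes held the deepest falls. Of these 11, 8, 10 and 9 fell in sets 1, 2 and 3, with medians of -0.63, -0.55 and -0.65. The desaturase Scd2, which puts a double bond into stearate, was at 642, 1048 and 718 CPM in WT and 116, 106 and 93.6 CPM in cKO cells of set 1, 608, 310.3 and 424 against 36.7, 80.6 and 38.4 in set 2, and 424, 1013 and 886 against 107, 108 and 83.5 in set 3. The cKO libraries were far below the WT ones (-2.93 ± 0.40, -3.11 ± 0.41 and -2.96 ± 0.40 on the log2 scale, adjusted p = 4.13e-06, 3.52e-06 and 3.5e-06). Its paralog Scd1 was at 114, 227 and 171 CPM in WT and 7.93, 7.05 and 6.58 CPM in cKO cells of set 1, 25.7, 7.71 and 21.4 against 2.33, 3.21 and 1.74 in set 2, and 88.1, 209 and 202 against 7.81, 6.62 and 5.66 in set 3. WT libraries of set 2 held much less Scd1 than those of sets 1 and 3, and Scd1 changed by -4.57 ± 0.56, -2.90 ± 0.57 and -4.64 ± 0.57 on the log2 scale (adjusted p = 1.08e-06, 0.000542 and 8.21e-07). Fads2, the delta-6 desaturase of polyunsaturated fatty acids, was at 90.4, 172 and 136 CPM in WT and 30.9, 29.9 and 27.01 CPM in cKO cells of set 1, 83.98, 36.3 and 57.8 against 15.4, 31.7 and 14.9 in set 2, and 34.6, 90.8 and 87.6 against 17.3, 16.3 and 15.7 in set 3. Its groups did not overlap in any set, and its log2 fold changes were -2.18 ± 0.43, -1.52 ± 0.42 and -2.11 ± 0.44, at adjusted p of 0.000314, 0.0108 and 0.000488. Fasn, the fatty acid synthase, fell to a smaller degree, from 228, 348 and 281 to 171, 182 and 186 CPM in set 1, from 469, 365 and 411 to 177, 204 and 173 CPM in set 2 and from 153, 331 and 298 to 155, 175 and 159 CPM in set 3. WT set 3 replicate 1 was as low as the cKO libraries, and the log2 fold changes were -0.67 ± 0.19, -1.17 ± 0.19 and -0.68 ± 0.19, at adjusted p of 0.00697, 5.23e-05 and 0.00628. The elongase Elovl6, which lengthens palmitate to stearate, was called in none of these sets (-0.21 ± 0.20, -0.41 ± 0.20 and -0.24 ± 0.20; adjusted p = 0.45, 0.147 and 0.39), and was the 1 member called in none of the 12 comparisons of cKO with WT cells.

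Stard4, whose product carries cholesterol between membranes, was at 71.9, 91.4 and 64.4 CPM in WT and 26.2, 29.8 and 27.04 CPM in cKO cells of set 1, 81.9, 67.2 and 68.4 against 24.6, 32.9 and 19.6 in set 2, and 54.3, 100.2 and 87.9 against 29.3, 29.03 and 28.9 in set 3. It was lower in every cKO library than in any WT library of its set (-1.46 ± 0.18, -1.50 ± 0.18 and -1.47 ± 0.18 on the log2 scale; adjusted p = 1.45e-06, 1.44e-06 and 1.11e-06). Beside the members, interferon genes moved the other way: 9, 10 and 9 of 10 rose in cKO cells of sets 1, 2 and 3, and their summed level was 186 to 417 CPM in WT and 747 to 1153 CPM in cKO libraries. Of 8 proliferation genes 3, 1 and 3 rose and none fell (sums of 1040.2 to 2385 CPM in WT and 1655 to 2132 CPM in cKO libraries). Markers of neutrophils rose for 4, 0 and 4 of 7 genes (sums of 96.8 to 202 and 157 to 288 CPM) and markers of B cells for 3, 1 and 3 of 5 (sums of 2.66 to 6.85 and 5.64 to 13.97 CPM). Stromal markers summed to 12.2 to 96.3 CPM in WT and 26.6 to 79.997 CPM in cKO libraries, and adipocyte markers to at most 0.101 CPM in any library of the experiment. Of 6 macrophage markers 1, 0 and 1 rose and 2, 2 and 3 fell. The part of other cells in the falls was not tested.

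**Figure D2:**
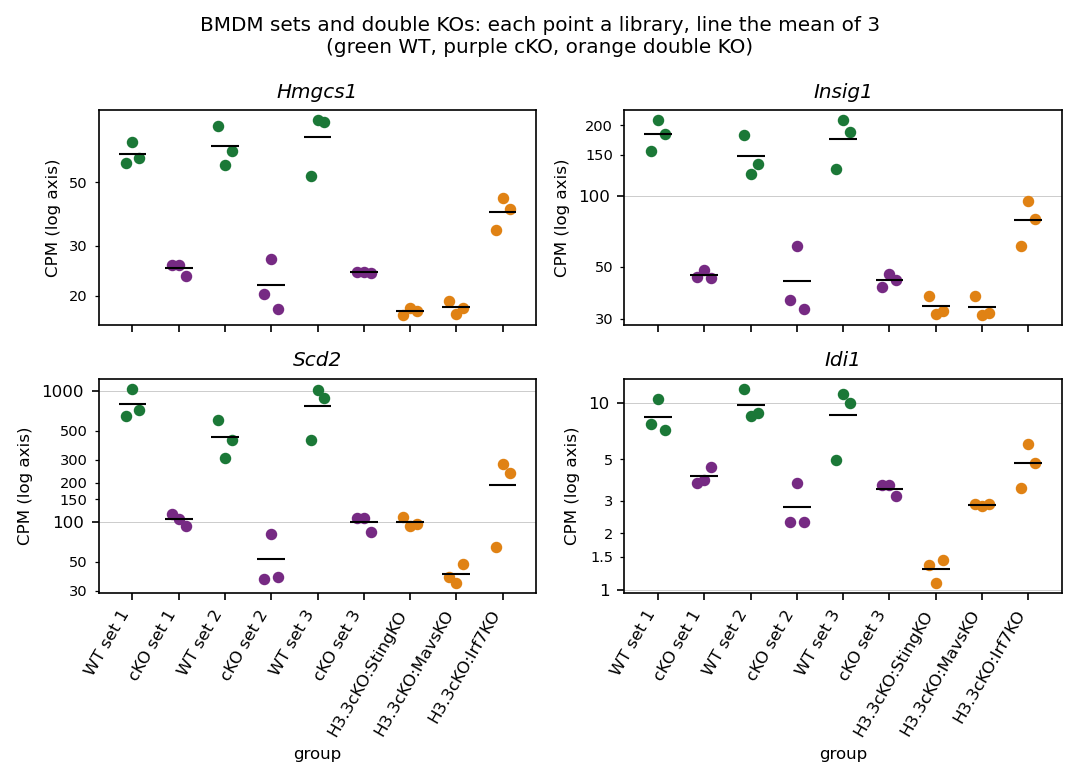
CPM of Hmgcs1, Insig1, Scd2 and Idi1 in each library (points) of the 3 BMDM sets and the double knockouts, on log axes, with lines at the group means. In each set the 3 cKO points lie below the 3 WT points, and the Irf7 double knockout holds 2 libraries above the cKO sets and 1 near or among them for Insig1, Scd2 and Idi1.

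Loss of Sting, Mavs or Irf7 on top of H3.3 loss was compared with the cKO sets to ask whether the lower levels depend on these genes of innate sensing. The targeted genes read as follows. Tmem173, which encodes STING, was at 6.10, 5.01 and 5.44 CPM in the Sting double knockout and at 68.2 to 91.6 CPM in cKO libraries. Irf7 was at 109, 112 and 98.3 CPM in the Irf7 double knockout against 249 to 470.2 CPM. Mavs was at 37.5, 37.9 and 37.2 CPM in the Mavs double knockout and at 36.0 to 51.6 CPM in cKO libraries, so its read count hardly separates the genotypes. H3f3b was at 71.9 to 220 CPM in the double knockout libraries, at 187 to 220 CPM in the cKO sets and at 200 to 285 CPM in the WT sets. Some double knockout libraries thus held less H3f3b than any cKO library of the sets, and its part in the differences below was not tested.

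In the Sting double knockout 12 members were lower and 2 higher than in cKO cells (against 17.2% and 18.9% of all genes), with a median log2 fold change of -0.11 over the 33. Idi1 was at 1.35, 1.08 and 1.44 CPM, below every cKO library of the 3 sets (2.31 to 4.53 CPM), and fell by 1.39 ± 0.25 on the log2 scale (adjusted p = 0.000121). Sqle was at 20.2, 20.2 and 20.9 CPM, also below all cKO libraries (log2 fold change -1.04 ± 0.19, adjusted p = 0.000166). Hmgcs1 (log2 fold change -0.42 ± 0.13, adjusted p = 0.0115), Cyp51 (log2 fold change -0.75 ± 0.19, adjusted p = 0.0032) and Stard4 (log2 fold change -0.81 ± 0.16, adjusted p = 0.000372) fell as well. Acss2 (log2 fold change 0.37 ± 0.15, adjusted p = 0.049) and Scap (log2 fold change 0.22 ± 0.07, adjusted p = 0.0217) rose. Insig1, Srebf1, Srebf2, Scd1, Scd2 and Lss were not called, with adjusted p between 0.0708 for Insig1 and 0.994 for Lss. In the same comparison 7 of 10 interferon genes rose, 5 of 8 proliferation genes fell and 4 of 5 tested stromal markers rose (sums of 181, 188 and 226 CPM against 26.6 to 79.997 CPM in cKO libraries), and their part in these differences was not tested.

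In the Mavs double knockout no member was called by edgeR, while 8.79% of all genes were. At an unadjusted p under 0.05 there were 4 members, against 3927 of 18083 genes, and DESeq2 called 2. Scd2 came nearest, at 38.4, 34.1 and 48.05 CPM (log2 fold change -1.02 ± 0.33, adjusted p = 0.0535), where the cKO libraries of set 2 (36.7 to 80.6 CPM) overlapped it and those of sets 1 and 3 lay above (83.5 to 116 CPM). All 5 tested stromal markers rose (sums of 331, 94.96 and 92.6 CPM) and 5 of 7 neutrophil markers fell.

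In the Irf7 double knockout 13 members were higher than in cKO cells and none lower (against 4.36% of all genes called higher), with a median of 0.35. The largest rises were those of Scd1 at 1.49, 22.5 and 16.1 CPM (log2 fold change 1.46 ± 0.41, adjusted p = 0.0245) and of Scd2 at 64.6, 279.6 and 236 CPM (log2 fold change 1.25 ± 0.29, adjusted p = 0.00671). In both genes replicate 1 was low, within or below the cKO range, and replicates 2 and 3 were above it. Insig1 was at 61.2, 94.98 and 80.1 CPM (log2 fold change 0.82 ± 0.15, adjusted p = 0.00121) and Hmgcs1 at 34.02, 44.1 and 40.3 CPM (log2 fold change 0.74 ± 0.12, adjusted p = 0.000156). All 3 libraries of Hmgcs1 were above the cKO range of 17.99 to 26.98 CPM and below the lowest WT library of the sets at 52.7 CPM. Stard4 (log2 fold change 0.62 ± 0.14, adjusted p = 0.00654), Cyp51 (log2 fold change 0.68 ± 0.17, adjusted p = 0.0113) and Lss (log2 fold change 0.62 ± 0.16, adjusted p = 0.0128) rose too, while Fads1 (log2 fold change -0.06 ± 0.10, adjusted p = 0.786), Fads2 (log2 fold change 0.11 ± 0.34, adjusted p = 0.892) and Elovl6 (log2 fold change -0.04 ± 0.16, adjusted p = 0.923) were not called. The count depended on the libraries: it was 2 without replicate 2 of the double knockout, and 4 or 3 when cKO set 1 or set 3 alone was the reference. Set 3, with 3 called, is the set that shares the gene list of this double knockout. In the same comparison 5 of 7 neutrophil markers and 3 of 5 B cell markers fell, 4 of 10 interferon genes rose and 1, Irf7 itself, fell, and their part was not tested. The 3 double knockout comparisons share the same cKO libraries, which the tests take as independent although sets 1 and 3 resembled each other.

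The day 8 experiment measured the genes in untreated BMDMs and after 12 h of IFNγ, with 2 cKO libraries per group. In untreated cells 5 members were called lower in cKO cells and none higher, where 0.107% of all genes were called lower. At an unadjusted p under 0.05 the number was 28 of 33, against 808 of 13075 genes, and the median over the members was -0.79. Scd2 was at 408, 377 and 414 CPM in WT and 73.8 and 88.01 CPM in cKO cells (log2 fold change -2.30 ± 0.21, adjusted p = 0.00194). The cKO libraries lay far under the WT ones. Fads2 was at 44.99, 45.2 and 49.5 against 15.3 and 17.4 CPM (log2 fold change -1.51 ± 0.20, adjusted p = 0.00784), Cyp51 at 114, 134 and 119 against 57.2 and 48.2 CPM (log2 fold change -1.21 ± 0.17, adjusted p = 0.00891), and Lss at 64.2, 63.1 and 56.02 against 30.2 and 26.6 CPM (log2 fold change -1.10 ± 0.19, adjusted p = 0.0268). None of these overlapped. Idi1, at 14.05, 12.96 and 14.4 against 6.41 and 6.45 CPM, was at the threshold (log2 fold change -1.10 ± 0.21, adjusted p = 0.0499).

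Other members whose groups did not overlap missed the adjusted threshold in untreated cells. Hmgcs1 was at 85.4, 101 and 80.3 CPM in WT and 46.3 and 43.4 CPM in cKO cells (log2 fold change -0.99 ± 0.24, adjusted p = 0.161), Insig1 at 166, 187 and 187 and 89.9 and 94.5 CPM (log2 fold change -0.97 ± 0.24, adjusted p = 0.176), and Scd1 at 17.996, 14.2 and 15.2 and 3.25 and 5.87 CPM (log2 fold change -1.80 ± 0.34, adjusted p = 0.0513). In each of these genes both cKO libraries were under all 3 WT libraries. Sqle had log2 fold change -0.79 ± 0.16 (adjusted p = 0.0663), Stard4 -0.91 ± 0.18 (adjusted p = 0.0658), Fasn -0.91 ± 0.30 (adjusted p = 0.451), Srebf1 -0.55 ± 0.25 (adjusted p = 0.802) and Srebf2 -0.37 ± 0.16 (adjusted p = 0.726). The count of called members was sensitive here: 16 with DESeq2 and 25 when the untreated groups were fitted alone, against 1 to 3 when any library was left out. The 2 libraries whose labels conflict on IFNγ bear on it too, with 1 member called when they were placed by title and 18 when placed by library name. In plain CPM, Isg15 was at 36.4 in the one that the library name calls untreated and at 589 in the other, beside 53.1 and 53.3 in the placed untreated cKO libraries and 526 and 633 in those with IFNγ.

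After IFNγ, 8 members were lower in cKO than in WT cells, none was higher, and 1.63% of all genes were called lower. The median was -0.67. Scd2 was at 373, 279 and 321 CPM in WT and 51.9 and 34.9 CPM in cKO cells (log2 fold change -2.94 ± 0.23, adjusted p = 0.000456), the widest gap of any member. Idi1 was at 5.04, 3.27 and 4.94 against 1.81 and 1.77 CPM (log2 fold change -1.32 ± 0.30, adjusted p = 0.0393), and Stard4 at 39.2, 25.7 and 27.1 against 13.9 and 12.5 CPM (log2 fold change -1.24 ± 0.21, adjusted p = 0.0146). The cKO libraries were the lower ones in all 3 genes. Dhcr7, whose product is cholesterol (log2 fold change -1.05 ± 0.17, adjusted p = 0.00985), Cyp51 (log2 fold change -1.05 ± 0.18, adjusted p = 0.0152), Fads1 (log2 fold change -1.04 ± 0.20, adjusted p = 0.0196), Sc5d (log2 fold change -1.0 ± 0.21, adjusted p = 0.029) and Elovl5 (log2 fold change -0.77 ± 0.19, adjusted p = 0.0474) completed the 8. Srebf1 stood at 99.5, 97.8 and 92.97 CPM in WT and 147 and 70.2 CPM in cKO cells, where the high cKO library was replicate 1, the shallowest of all with 3614967 counts and the most stromal signal (386 CPM over the stromal markers against 9.86 to 62.5 CPM in the other IFNγ libraries). In that library 57.06% of reads were unmapped, against 12.57 to 18.35% in the other day 8 libraries, and its TMM factor was 0.46 against 0.89 to 1.25. Srebf1 was not called (log2 fold change 0.14 ± 0.25, adjusted p = 0.782), and the 2 cKO libraries point opposite ways: with replicate 2 as the lone cKO library it was -0.44, and with replicate 1 alone it was 0.58, both past the threshold, in fits that assume the lone library to vary like the other groups. The count was 1 with the compared groups fitted alone and 1 with the conflicting libraries placed by title, 4 with the replicate number as a block, 13 with DESeq2, and 14 without a filter or with those libraries placed by name. Leaving out 1 library at a time gave 4 to 17 called members, the 4 without WT IFNγ replicate 3 and the 17 without cKO IFNγ replicate 2, where the shallow replicate 1 was the lone cKO library.

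**Figure D3:**
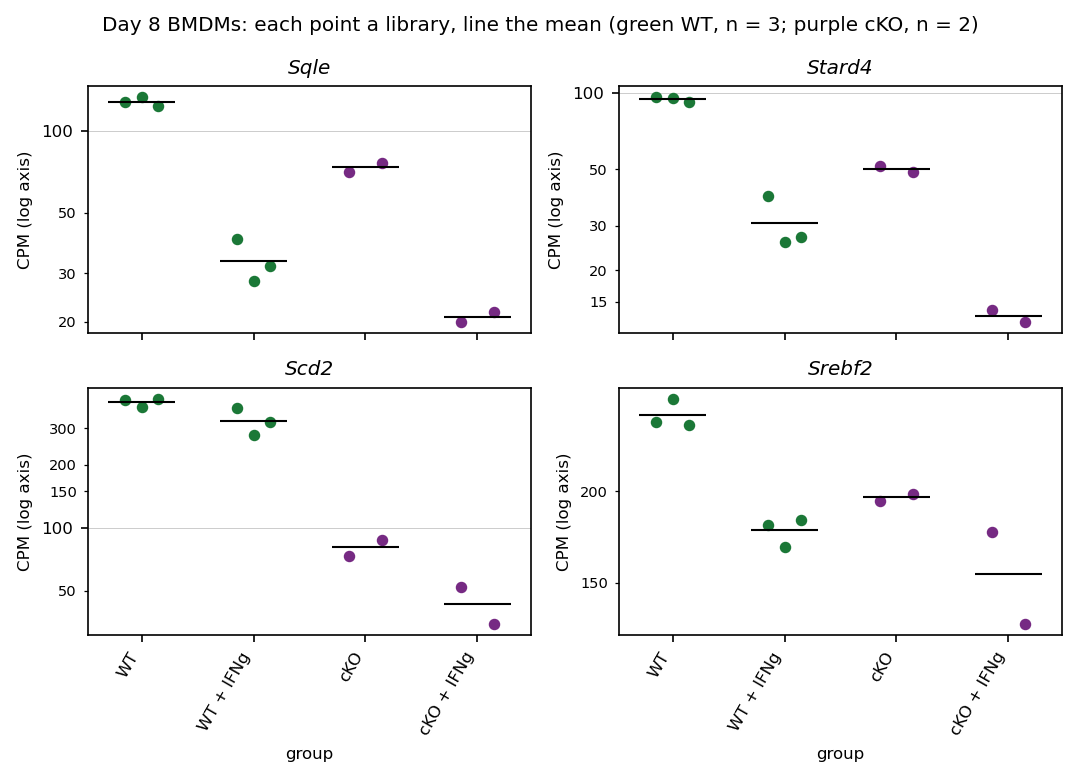
CPM of Sqle, Stard4, Scd2 and Srebf2 in each day 8 library (points), untreated and after 12 h of IFNγ, in WT and cKO cells, on log axes with lines at the group means. Sqle and Stard4 are lower after IFNγ in every library of either genotype, and the cKO libraries of Scd2 all lie below the WT ones.

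IFNγ lowered most members in both genotypes. In WT cells 24 of 33 fell and 1 rose, where 20.1% of all genes fell and 20% rose, and the median was -0.85. In cKO cells 18 fell and 2 rose, against 16.4% and 17.2% of all genes, with a median of -0.75. The same 17 members fell in both genotypes. The share of all genes that fell in both was not counted, and it can be at most the 16.4% of cKO cells. No member was called in either genotype when the libraries of conflicting labels were placed by title. That placement sets the library with Isg15 at 589 CPM among untreated cKO cells and the one at 36.4 CPM among treated ones. Placing them by library name moved neither count by over 1.5 times. In cKO cells 5 members were called when the compared groups were fitted alone. Elovl6 fell most, at 15.1, 14.4 and 11.8 CPM before and 2.79, 1.49 and 3.85 CPM after IFNγ in WT cells, and 8.69 and 9.68 CPM before against 3.02 and 1.18 CPM after in cKO cells. The treated libraries were below the untreated ones in each genotype (log2 fold changes -2.32 ± 0.31 and -2.52 ± 0.47, adjusted p = 0.000226 and 0.00266). Fasn was at 382, 334 and 338 CPM before and 110.2, 73.8 and 85.6 CPM after IFNγ in WT cells, and 196 and 178 CPM before against 86.3 and 36.04 CPM after in cKO cells. It fell by 1.97 ± 0.28 and 1.66 ± 0.34 on the log2 scale (adjusted p = 0.000325 and 0.00456). Sqle was at 127, 132 and 122.6 CPM before and 40.1, 28.1 and 32.04 CPM after IFNγ in WT cells, and 70.6 and 76.3 CPM before against 19.9 and 21.7 CPM after in cKO cells. Its treated libraries were all under its untreated ones (log2 fold changes -1.92 ± 0.15 and -1.81 ± 0.19, adjusted p = 5.91e-06 and 8.59e-05).

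Fads1, the delta-5 desaturase, fell by 1.60 ± 0.16 in WT and 2.15 ± 0.21 in cKO cells on the log2 scale (adjusted p = 3.43e-05 and 5.43e-05), and Stard4 by 1.62 ± 0.17 and 1.95 ± 0.23 (adjusted p = 4.28e-05 and 0.000153). Srebf2 was at 249, 268 and 246 CPM before and 180.1, 168 and 183 CPM after IFNγ in WT cells, and 194 and 199 CPM before against 176 and 132 CPM after in cKO cells (log2 fold changes -0.52 ± 0.14 and -0.36 ± 0.17, adjusted p = 0.0124 and 0.136). Scd2 was not called in WT cells (-0.30 ± 0.17, adjusted p = 0.199) and fell in cKO cells (-0.93 ± 0.23, adjusted p = 0.0102). The phosphomevalonate kinase Pmvk rose in both genotypes (0.92 ± 0.27 and 1.58 ± 0.36, adjusted p = 0.0196 and 0.00814), and Acss2 rose in cKO cells (1.77 ± 0.35, adjusted p = 0.00366) and was not called in WT cells (0.61 ± 0.26, adjusted p = 0.0862). The test of the difference between the genotypes' IFNγ responses called no member with edgeR or DESeq2. That test gave 3 members an unadjusted p under 0.05, against 1105 of 13075 genes, and 0% of all genes were called. When cKO IFNγ replicate 2 was left out, which leaves the shallow replicate 1 alone, 8 members were called in that test. All 10 interferon genes rose in both genotypes. Of 8 proliferation genes 2 fell in WT and 6 in cKO cells, with sums of 2109, 1101 and 1860.4 CPM before and 1449.5, 868 and 1253 CPM after IFNγ in WT and 1508 and 1479 against 689 and 743 CPM in cKO cells. Their part in the falls was not tested.

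In the time course no member was called between cKO and WT cells on any day. On day 3 the median log2 fold change over the members was -0.36, and 28 of 33 had a value below zero. DESeq2 called 0, while 7.73% of all genes were called by edgeR. An unadjusted p under 0.05 was found for 2 members, against 3474 of 15955 genes. On day 5 the median was -0.53, with 0 called by DESeq2, against 2.83% of all genes by edgeR. That day 4 members had an unadjusted p under 0.05, against 2171 of 15955 genes. On day 7 the median was -0.41, with 1 called by DESeq2, against 1.4% of all genes by edgeR. A single member, 1 of 33, had an unadjusted p under 0.05, against 2629 of 15955 genes. When day 3 libraries were fitted alone, 14 members were called, whereas the main fit took its spread from days 3, 5 and 7 together. Hmgcs1 was at 48.8, 47.6 and 46.2 CPM in WT and 39.4, 38.04 and 32.5 CPM in cKO cells (log2 fold change -0.38 ± 0.41, adjusted p = 0.645), and Stard4 at 45.5, 47.6 and 45.99 and 29.2, 37.8 and 25.9 CPM (log2 fold change -0.58 ± 0.32, adjusted p = 0.316). Fasn was at 302, 300.4 and 244 and 171, 180.0 and 149.8 CPM (log2 fold change -0.76 ± 0.41, adjusted p = 0.306). In these 3 genes all cKO libraries were the lower ones. In the same comparison all 10 interferon genes and 3 of 5 B cell markers rose in cKO cells (B cell sums of 11.8, 12.3 and 11.6 CPM in WT and 48.97, 24.8 and 28.5 CPM in cKO libraries), the macrophage marker Cd68 fell, and the median over 8 proliferation genes was -0.48. Their part was not tested.

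On days 5 and 7 single libraries stood apart across the whole pathway. WT day 5 replicate 1 was above the mean of the experiment for 31 of the 33 members, and WT day 7 replicate 2 was low beside its 2 replicates. Among cKO libraries, day 7 replicate 1 was low and replicates 2 and 3 were high. The median deviation over the members, in log2 units, was 0.80, -0.24 and -0.24 in WT and -0.27, -0.33 and -0.37 in cKO cells on day 5, and 1.22, -0.07 and 0.97 in WT and -0.49, 0.74 and 0.68 in cKO cells on day 7. Scd2 shows the range: 1537, 62.8 and 76.1 CPM in WT and 197, 82.99 and 76.8 CPM in cKO cells on day 5 (log2 fold change -2.23 ± 1.05, adjusted p = 0.366), and 1488, 328 and 1542 and 63.9, 912 and 820.4 CPM on day 7 (log2 fold change -0.90 ± 1.01, adjusted p = 0.695). The genotypes overlapped on both days. Insig1 on day 7 was at 256, 117 and 231 CPM in WT and 52.1, 182 and 166 CPM in cKO cells (log2 fold change -0.60 ± 0.44, adjusted p = 0.522), with the same libraries high and low. Proliferation genes summed to 2043, 724 and 2334 CPM in the WT day 7 libraries and to 1804, 2314 and 2411 CPM in the cKO ones. The low WT library had the lowest proliferation sum and the highest macrophage marker sum of the experiment (7446 CPM). The low cKO library had the highest stromal sum of the experiment (146 CPM). Its neutrophil sum (304 against 119 and 120 CPM) and interferon sum (1731 against 1008 and 1129 CPM) were above those of its replicates. So were its macrophage and B cell sums. Their part in the spread was not tested.

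**Figure D4:**
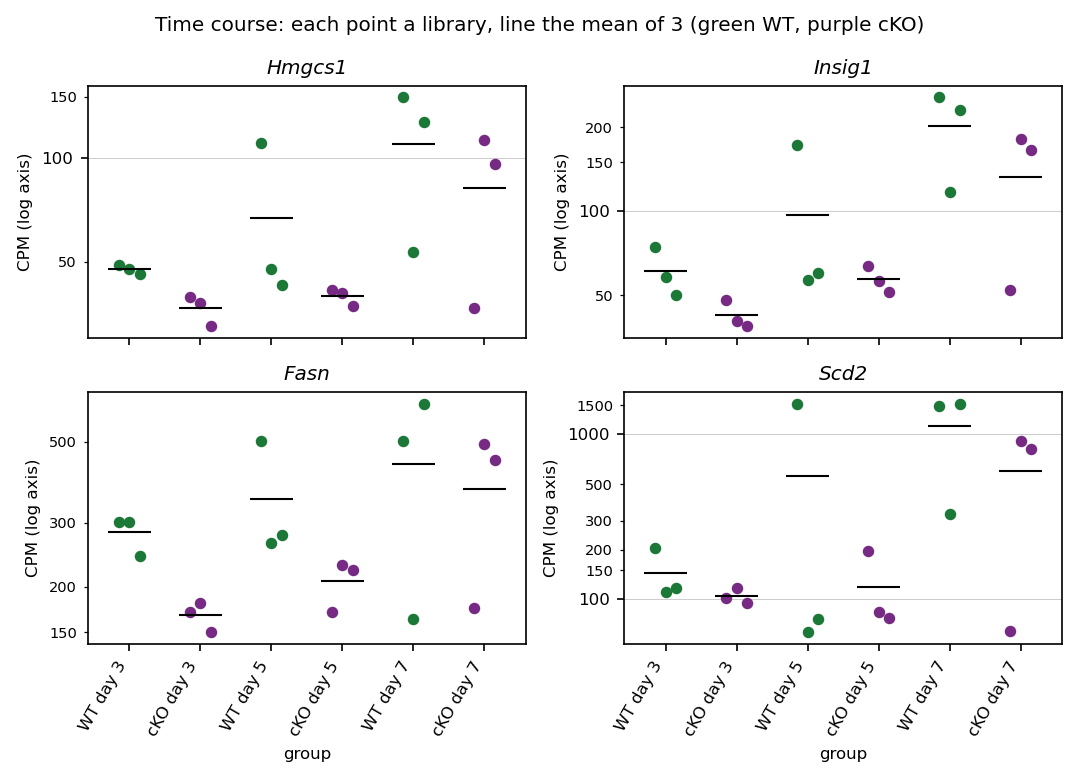
CPM of Hmgcs1, Insig1, Fasn and Scd2 in each library (points) by day of the time course and genotype, on log axes with lines at the group means. The points of days 5 and 7 spread widely, with WT day 5 replicate 1 high, and WT day 7 replicate 2 and cKO day 7 replicate 1 low.

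From day 3 to day 7 members rose in both genotypes. In WT cells 13 were higher on day 7 and none lower (against 12.3% of all genes called higher), with a median of 0.89. In cKO cells 6 were higher and none lower (against 6.32%), with a median of 1.01. In WT cells Scd1 went from 6.07, 1.64 and 0.955 CPM to 139.6, 52.5 and 169 CPM (log2 fold change 5.41 ± 1.68, adjusted p = 0.0299) and Fads2 from 32.2, 21.2 and 17.7 to 189, 51.7 and 189.5 CPM (log2 fold change 2.60 ± 0.81, adjusted p = 0.0311). In cKO cells Insig1 went from 48.2, 40.4 and 38.7 to 52.1, 182 and 166 CPM (log2 fold change 1.65 ± 0.45, adjusted p = 0.023) and Lss from 20.4, 18.5 and 18.2 to 22.3, 83.6 and 72.01 CPM (log2 fold change 1.64 ± 0.52, adjusted p = 0.0452). None of these groups overlapped. Fads1, Insig1, Lss and Dhcr7 were called in both genotypes. Markers of other cells moved over the same days: all 7 neutrophil markers fell (medians -4.03 in WT and -4.34 in cKO cells), 4 of 5 B cell markers fell (-3.60 and -3.95), and 2 of 6 macrophage markers rose in WT and 1 in cKO cells. All 10 interferon genes rose in WT cells (median 5.00), where the median in cKO cells was -0.17. Their part in the members' rise was not tested. The test of whether the cKO effect differed between day 7 and day 3 called no member by edgeR or DESeq2, where 0.0439% of all genes were called. No member had an unadjusted p under 0.05 in it, against 2480 of 15955 genes. The number that rose ranged from 1 to 21 in either genotype when 1 library was left out, with 21 in WT cells without WT day 7 replicate 2 and 21 in cKO cells without cKO day 7 replicate 1. Leaving out WT day 3 replicate 3, or cKO day 3 replicate 2, left 1.

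In the antibody experiment few members passed the test between genotypes. Without antibody 8 members had an unadjusted p under 0.05, against 4583 of 17191 genes, and the median was -0.29. By adjusted p, 1 of the 33 members was higher in cKO cells and none lower. That count is near the share of all genes called higher (3.39%). The one called was Acaca, which makes malonyl-CoA, at 23.1, 14.9 and 15.2 CPM in WT and 29.4, 28.4 and 31.8 CPM in cKO cells (log2 fold change 0.75 ± 0.19, adjusted p = 0.0255). All 3 cKO libraries were above the WT ones, whereas Acaca was lower in cKO cells in the BMDM sets. The count was 0 without WT replicate 2 and 4 without WT replicate 1. With control antibody 2 members had an unadjusted p under 0.05, against 2705 of 17191 genes, and the median was -0.05. By adjusted p, 1 was lower (against 1.57%). That gene was Srebf1, at 93.7, 91.7 and 88.6 CPM in WT and 69.8, 63.1 and 66.1 CPM in cKO cells (log2 fold change -0.46 ± 0.11, adjusted p = 0.0295), without overlap. It was not called when any 1 library of these groups was left out. With IFNAR1 antibody no member was called by edgeR or DESeq2, the median was -0.56, and 0.675% of all genes were called. An unadjusted p under 0.05 was found for 5 members, against 2012 of 17191 genes. Without cKO IFNAR1 replicate 1, edgeR called 8.

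Hmgcs1 was at 31.4, 39.6 and 37.5 CPM in WT and 25.9, 24.9 and 23.7 CPM in cKO cells without antibody (log2 fold change -0.54 ± 0.21, adjusted p = 0.121) and at 36.4, 33.9 and 36.2 against 24.2, 26.9 and 24.7 CPM with control antibody (log2 fold change -0.49 ± 0.21, adjusted p = 0.257). The cKO libraries were the lower ones in both, yet neither passed. Insig1 without antibody was at 69.05, 296 and 122 CPM in WT and 39.03, 39.6 and 34.8 CPM in cKO cells (log2 fold change -2.10 ± 0.86, adjusted p = 0.138). The WT libraries lay far from each other there. Scd2 was at 119, 129 and 109 against 55.03, 43.8 and 39.6 CPM without antibody (log2 fold change -1.37 ± 0.62, adjusted p = 0.171).

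IFNAR1 antibody was compared with control antibody within each genotype. Between these arms 0 of 10 interferon genes were called in WT cells, and 1, Oasl1, was lower in cKO cells. In cKO against WT cells 9 of the 10 were higher under IFNAR1 antibody (median 3.19) and all 10 under control antibody (median 3.16). How far the antibody blocked type I interferon signalling in these libraries was not tested here. In WT cells 8 members were higher and 1 lower with the IFNAR1 antibody (against 6.83% and 3.06% of all genes), with a median of 1.13. Fads2 went from 0.350, 0.283 and 0.915 CPM with control antibody to 38.4, 47.2 and 1.85 CPM with IFNAR1 antibody (log2 fold change 5.89 ± 1.39, adjusted p = 0.018), and Scd1 from 1.26, 0.680 and 1.65 to 78.1, 51.6 and 1.06 CPM (log2 fold change 5.22 ± 1.46, adjusted p = 0.0357). Replicates 1 and 2 were high in both genes and replicate 3 was near the controls. Insig1 had the same shape, at 56.98, 51.99 and 52.99 against 381, 639 and 50.8 CPM, and was not called (log2 fold change 2.72 ± 0.88, adjusted p = 0.0577). Scap was the member that fell (log2 fold change -0.74 ± 0.22, adjusted p = 0.0445). In cKO cells no member was called by edgeR and 2 by DESeq2, and the median was 0.56, against 4.03% of all genes called. There 7 members had an unadjusted p under 0.05, against 3343 of 17191 genes. Insig1 was at 33.3, 46.98 and 40.2 and 447, 44.8 and 38.99 CPM there (log2 fold change 2.15 ± 0.87, adjusted p = 0.182), with replicate 1 alone high. The test of whether the cKO effect differed between IFNAR1 and control antibody called no member by edgeR or DESeq2, and 0% of all genes were called. No member had an unadjusted p under 0.05 in it, against 975 of 17191 genes.

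The high libraries were the same across the pathway. The median deviation over the members was 1.0, 1.37 and -0.19 in WT and 1.01, -0.26 and -0.32 in cKO libraries with IFNAR1 antibody, and -0.07, -0.10 and -0.17 in WT and -0.29, -0.22 and -0.17 in cKO libraries with control antibody. Proliferation genes summed to 2112, 2479 and 986 CPM and 1424, 866 and 592 CPM with IFNAR1 antibody, and to 536, 254 and 281 CPM and 415, 237 and 264 CPM with control antibody. Without antibody the sums were 1217, 1160 and 1069 CPM in WT and 1056, 995 and 667 CPM in cKO libraries, above those with control antibody. The members' median deviations without antibody were 0.00, -0.20 and -0.17 in WT and -0.22, -0.25 and -0.28 in cKO libraries. Of 8 proliferation genes, 7 rose in WT and 5 in cKO cells under IFNAR1 antibody, while the median over 10 interferon genes was -0.17 in WT and -0.27 in cKO cells. Their part in the members' rise was not tested. Without WT IFNAR1 replicate 3 the WT comparison called 22 members, and without WT control replicate 1 it called 0. Control antibody libraries were shared by the comparisons of genotype and of antibody.

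**Figure D5:**
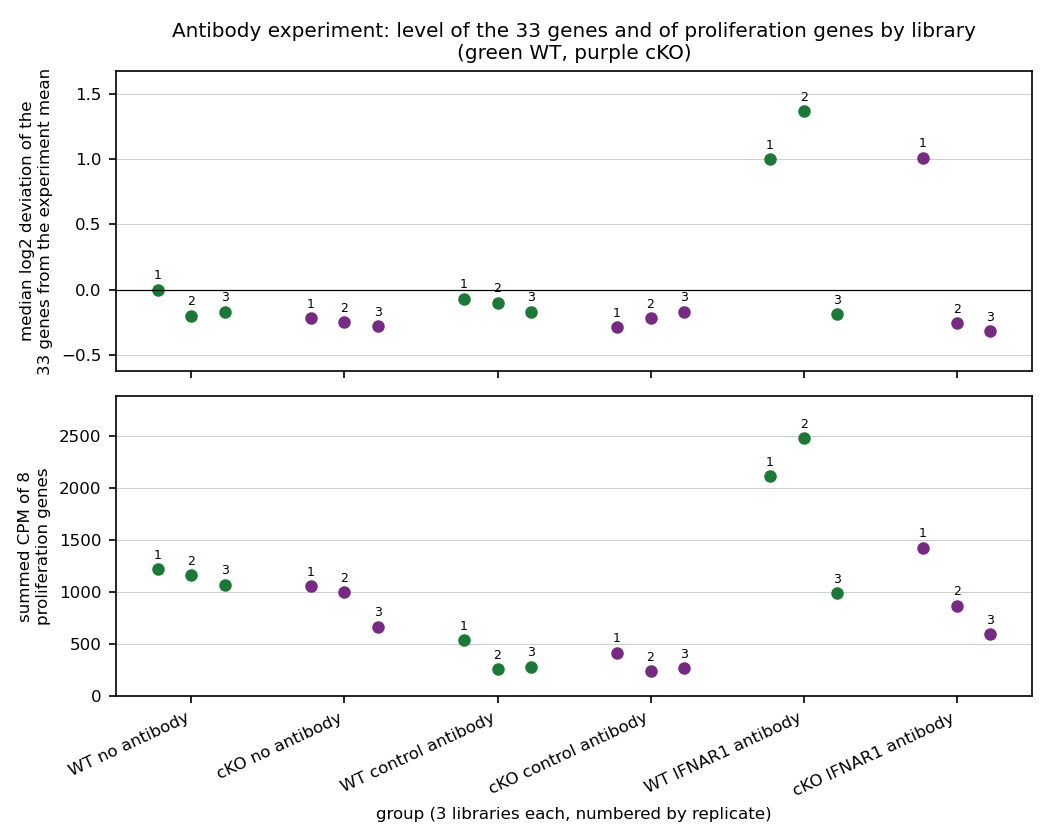
For each library of the antibody experiment, the median log2 deviation of the 33 members from the mean of the experiment and the summed CPM of 8 proliferation genes. WT IFNAR1 replicates 1 and 2 and cKO IFNAR1 replicate 1 stand above the rest, with deviations of 1.0, 1.37 and 1.01.

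In peritoneal macrophages, taken from the mouse without culture, no member passed the test between the genotypes. Of the 32 members tested none was called by edgeR or DESeq2, and the median was 0.05, against 0.971% of all genes called. An unadjusted p under 0.05 was found for 1 member, against 1137 of 12361 genes. Fads2 was too low to test (0.225, 0.426 and 0.228 CPM in WT and 0.0428, 0.106 and 0.520 CPM in cKO cells). Hmgcs1 was at 16.5, 24.1 and 16.8 CPM in WT and 14.7, 17.4 and 31.3 CPM in cKO cells (log2 fold change 0.13 ± 0.31, adjusted p = 0.943), Insig1 at 43.7, 74.5 and 62.2 and 54.5, 49.6 and 115 CPM (log2 fold change 0.27 ± 0.34, adjusted p = 0.876), and Scd2 at 8.54, 17.7 and 17.5 and 14.98, 12.4 and 47.5 CPM (log2 fold change 0.74 ± 0.51, adjusted p = 0.762). The groups overlapped in all 3 genes, and cKO replicate 3 was the highest library in each. That library was above the mean for 30 of the members (median deviation 0.53). In the same cells 7 of 10 interferon genes rose in cKO libraries.

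Counted over the 12 comparisons of cKO with WT cells, with the resembling sets 1 and 3 each entering once, Scd2, Cyp51 and Idi1 had the most calls, 5 each. Next came 8 members with 4 calls (Fads2, Stard4, Lss, Sc5d, Dhcr7, Fads1, Acaca and Srebf1), and 17 members had 3. Mvk was called in 2, Hsd17b7, Elovl1 and Ebp in 1 each, and Elovl6 in none. Outside the BMDM sets, Scd2, Cyp51 and Idi1 were called in both day 8 comparisons, and Fads2, Lss, Stard4, Dhcr7, Fads1, Sc5d and Elovl5 in 1 of them. Acaca (higher in cKO cells) and Srebf1 (lower) were called in the antibody experiment, and the other members in no comparison outside the sets.

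Of 19 other genes of the same pathways, 6, 8 and 6 fell and 5, 2 and 3 rose in sets 1, 2 and 3. The acetyl-CoA acetyltransferase Acat2 and the citrate carrier Slc25a1 fell in each set (-1.08 ± 0.28, -0.97 ± 0.28 and -1.20 ± 0.28 and -1.06 ± 0.13, -0.89 ± 0.13 and -1.11 ± 0.13). Acacb, the acetyl-CoA carboxylase whose product restrains fatty acid oxidation, went the other way, up by 1.40 ± 0.24, 2.54 ± 0.25 and 1.68 ± 0.24 (adjusted p = 6.51e-05, 6.94e-08 and 6.04e-06), and it was also higher in cKO cells on day 3 (log2 fold change 2.95 ± 0.48, adjusted p = 0.00144) and after IFNγ (log2 fold change 2.40 ± 0.35, adjusted p = 0.00641). After IFNγ itself, 9 of the 19 fell and 3 rose in WT cells, and 8 fell and 1 rose in cKO cells.

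LXR receptors sense oxysterols and raise the genes of sterol export. Of 8 LXR and oxysterol genes, 5, 1 and 5 fell and 2, 0 and 2 rose in cKO cells of sets 1, 2 and 3. The exporter Abca1 fell in sets 1 and 3 (-0.93 ± 0.23 and -1.07 ± 0.23; adjusted p = 0.00261 and 0.000744), while Ch25h, which makes the oxysterol 25-hydroxycholesterol, rose there (1.44 ± 0.32 and 1.47 ± 0.32; adjusted p = 0.00105 and 0.000981) from WT means of 2.97 and 2.42 CPM. In set 2 Ch25h was not called (log2 fold change -0.62 ± 0.31, adjusted p = 0.164). IFNγ raised Ch25h in WT cells from 8.998, 2.76 and 4.73 to 64.7, 81.9 and 79.1 CPM (log2 fold change 3.78 ± 0.51, adjusted p = 0.00027) and in cKO cells from 6.58 and 8.41 to 18.7 and 86.4 CPM (log2 fold change 2.91 ± 0.60, adjusted p = 0.00466). The 18.7 CPM was in the shallow cKO IFNγ replicate 1. Without TMM scaling that library held 8.58 CPM, between the 8.2 and 10 CPM of the untreated cKO libraries. Abcg1, the other exporter, rose with IFNγ in both genotypes (2.27 ± 0.18 and 2.40 ± 0.23), and Abca1 fell (-0.84 ± 0.15 and -1.14 ± 0.19). Without antibody 4 of the 8 rose in cKO cells and 1 fell, with Abcg1 (1.36 ± 0.19) and Abca1 (1.28 ± 0.36) among those that rose.

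Counts were made without regard to strand. Exons of 10 members overlap a gene on the other strand (Hmgcs1, Idi1, Fdft1, Lss, Cyp51, Srebf1, Scap, Acss2, Elovl1 and Elovl6) and those of 4 a gene on the same strand (Fdps, Tm7sf2, Srebf1 and Scd2), and reads that touched exons of both genes were set aside as ambiguous by the counter (3.16 to 6.23% of all reads per library, over all genes). These members may therefore be undercounted.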

How the data were processed

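Gene counts were measured by RNA-seq in 81 libraries. The authors removed adapters with Cutadapt, aligned paired-end reads to mm10 with STAR and deposited STAR's raw counts per gene for each library. Versions and the annotation release are not given in the sources used here. The unstranded count column was used, the strand columns were not, and the 4 summary lines were left out. For peritoneal macrophages the study's methods and the labels name different library kits.

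Counts were tested with edgeR 4.0.16 in R 4.3.3 (quasi-likelihood F test on TMM-scaled counts). Genes passed filterByExpr by group, with a smallest count of 10 and a smallest total of 15. The groups of an experiment shared 1 model, and p-values were adjusted by Benjamini-Hochberg over all genes tested (15955 in the time course, 13075 on day 8, 12361 in peritoneal macrophages, 17191 in the antibody experiment and 18083 in the BMDM sets and double knockouts), with a threshold of 0.05. Fold changes are log2, and groups held 3 libraries, or 2 for cKO cells of day 8. Each SE is the absolute log2 fold change divided by the square root of F. It rests on the spread over all groups of the experiment and not on that of the compared libraries alone. The scripts were tested on simulated data. Alternatives were DESeq2 1.42.0, RLE scaling, no filter on low counts, the replicate number as a block, the compared groups alone, each library left out, single reference sets, placing the 2 libraries of conflicting labels by title or by library name, and, chosen after seeing the data, fits without BMDM set 1 or set 3.

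The labels call the replicates biological. Over 78 pairs of libraries within a group, none agreed within sampling noise (chi-square per degree of freedom of 3.67 to 332). Same-numbered libraries deviated together, with r over 0.1 in every pair, for cKO against WT on day 5 (0.30 to 0.37), on day 7 (0.18 to 0.46), in peritoneal macrophages (0.13 to 0.37) and in BMDM sets 1 (0.27 to 0.33) and 3 (0.15 to 0.41), for IFNγ in WT cells (0.52 to 0.66), for day 7 against day 3 in cKO cells (0.27 to 0.41) and for IFNAR1 antibody in cKO cells (0.10 to 0.19). The labels give no shared litter or day.

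The 33 members, the marker lists (macrophage, neutrophil, B cell, stromal and adipocyte) and the lists of interferon, proliferation, other pathway and LXR genes were chosen with earlier results of these data known. Values per library are given for Hmgcs1, Sqle, Srebf1, Srebf2, Insig1, Fasn, Scd1, Scd2 and Stard4 and for the 6 members called most often, where ties at 4 calls were broken by mean absolute fold change after the values were seen. In each comparison the called members with the 2 largest rises and falls are named, and other members and genes were named after their values were seen. Sequences are RefSeq promoter windows of GRCm38.p6.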

Additional observations from a re-analysis of the deposited data

Results flagged for a closer look

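For Scd2 and Elovl5, cKO and WT libraries of the antibody experiment separated in opposite directions in different arms. Scd2 was lower in all 3 cKO libraries than in any WT library without antibody (log2 fold change -1.37 ± 0.62, adjusted p = 0.171) and higher in all 3 with control antibody (0.45 ± 0.61, adjusted p = 0.843). Elovl5 was lower without antibody (-0.39) and higher with control antibody (0.28). Neither gene passed edgeR's test in either arm, and the difference between these arms was not tested. Of the 33 members, 14 did not overlap between the genotypes without antibody and 16 with control antibody. The share of all genes without overlap was not counted.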

How the results depend on the processing

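The counts in the BMDM sets moved by less than 1.5 times under every alternative run: 28, 30 and 30 members called in sets 1, 2 and 3, and 24 to 32 under the other settings and with any 1 library left out (25 to 30, 27 to 32 and 26 to 32). In fits without set 1 or set 3, chosen after seeing the data, there were 29 to 31. Those fits moved no count of the double knockout comparisons by over 1.5 times. For the 13 members with values per library and those with the 2 largest rises or falls of a comparison, which had 107 calls between them, 1431 values under alternatives gave 1204 with the same direction and call, 227 that lost the call and 0 that changed direction. The smaller comparisons moved more, and the cause was not tested. With DESeq2 the counts were 1 on day 7, 16 untreated and 13 with IFNγ on day 8 (5 and 8 in the main test), 2 without antibody, 13 for cKO day 7 against day 3, 15 and 2 for IFNAR1 antibody in WT and cKO cells, and 2 in the Mavs double knockout. Without a filter they were 1 on day 5, 1 on day 7, 13 and 14 on day 8, 2 without antibody, 0 with control antibody, 18 for cKO day 7 against day 3, 16 and 2 for IFNAR1 antibody, 7 in the Mavs and 20 in the Irf7 double knockout. With the compared groups alone they were 14 on day 3, 25 and 1 on day 8, 8 without and 8 with control antibody, 8 and 11 for day 7 against day 3 in WT and cKO cells, 5 for IFNγ in cKO cells, 0 for IFNAR1 antibody in WT cells, 4 in the Mavs and 20 in the Irf7 double knockout. With the libraries of conflicting labels placed by title they were 1 and 1 on day 8 and 0 for IFNγ in either genotype, and by library name 18 and 14 on day 8. With cKO set 1 or set 3 alone as reference they were 2 and 2 in the Mavs and 4 and 3 in the Irf7 double knockout. With the replicate number as a block, the count for day 8 with IFNγ was 4, and no other count moved by over 1.5 times (29, 31 and 30 in the BMDM sets). The pairs of that comparison did not deviate together (r = -0.08 to 0.10).

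Leaving out 1 library gave 1 to 3 members on day 8 untreated (1 without WT replicate 3), 4 to 17 with IFNγ, 0 to 4 without antibody (0 without WT replicate 2), 0 with control antibody, and 0 to 8 with IFNAR1 antibody. It gave 1 to 21 for day 7 against day 3 in either genotype, 20 to 25 and 14 to 21 for IFNγ in WT and cKO cells, 0 to 22 and 0 to 1 for IFNAR1 antibody in WT and cKO cells, 9 to 14, 0 to 2 and 2 to 16 in the Sting, Mavs and Irf7 double knockouts, and 0 to 8 for the difference in IFNγ response. The count was 9 without Sting double knockout replicate 1. Srebf1 with IFNγ on day 8 changed direction without cKO replicate 1 (-0.44, adjusted p = 0.0347, against 0.14 in the main test and 0.58 without cKO replicate 2). Groups of 2 or 3 libraries limit what could be detected, and the day 8 libraries were also shallow.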

Other observations

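In cKO BMDMs from day 8, 2 further libraries carry labels that disagree on IFNγ, the title giving one state and the library name the other, and they entered no comparison. In plain CPM, without TMM scaling, the first held 43.3 of Hmgcs1, 85.9 of Sqle, 9.92 of Idi1 and 66 of Scd2, and the second 23.1, 18.1, 1.62 and 25.3. The interferon genes Isg15 and Irf7 were at 36.4 and 230 CPM in the first and at 589 and 1.79e+03 CPM in the second. In the placed cKO libraries Isg15 was at 53.1 and 53.3 CPM untreated and at 526 and 633 CPM with IFNγ, and Irf7 at 250 and 306 CPM untreated and at 749 and 2.09e+03 CPM with IFNγ.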
